A study of Rattus norvegicus with 8 samples.

Results

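Kinesins are motor proteins that walk along microtubules, or shorten them, on energy from ATP. The genes described here were all those in the deposited count table whose name begins with Kif followed by a digit, 40 of 22601 gene names. Within them, 10 genes form a mitotic list (Kif2c, Kif4a, Kif11, Kif15, Kif18a, Kif18b, Kif20a, Kif20b, Kif22 and Kif23) and 9 form a cargo transport list (the Kif1, Kif3 and Kif5 groups). The other 21 were kept apart, among them Kif1bp, the KIF1-binding protein, which is a partner of kinesins and not a motor itself. RNA came from rat sciatic nerve on day 15 after chronic constriction injury (CCI, in which loose ligatures around the nerve produce lasting neuropathic pain) or after sham surgery. Each of the 2 groups had 4 libraries, called CCI 1 to 4 and sham 1 to 4. The series is about neuropathic pain and names FGF4, HIF-1α and glycolysis in its title. The labels give no strain, sex, age or genotype and name no drug or transgene. They also leave unstated which animals the libraries came from, so the p-values cover library-to-library spread, which may be partly technical.

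Mitotic kinesins build the spindle, align and separate chromosomes and divide the cell body, and their mRNAs are known to be made mainly by cycling cells. Transport kinesins haul vesicles, mitochondria and mRNAs outward along microtubules and are best known from axons. The cell bodies of sciatic nerve axons lie outside the nerve, so most mRNA of a nerve segment comes from Schwann cells, fibroblasts, vessel cells and immune cells.

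Library totals lay between 42541217 and 54559292 counts. Levels are given as CPM, counts relative to a library total scaled with edgeR's TMM factors, and changes as log2 fold changes of CCI against sham with their standard error (SE) and a Benjamini-Hochberg adjusted p from edgeR's quasi-likelihood test, with n = 4 per group. A gene was called higher or lower at an adjusted p under 0.05. Most tested genes differed between the groups: 10788 of the 15763 genes tested were called, 68.4%, with 36.2% of tested genes higher and 32.2% lower, and the median log2 fold change over them was 0.05. Of the 40 kinesin genes 35 passed the filter on low counts, and 15 were called higher, 15 lower and 5 neither, a share of calls to be read against those background shares. The CCI and sham libraries did not overlap in 30 of the 35 (85.7%), and in 64.8% of all tested genes. Among those tested, 33 passed the filter in sham and in CCI libraries alike, and Kif14 and Kif17 passed through the CCI libraries. Skeletal muscle markers summed to 17.3 to 747 CPM in sham and 13.3 to 2951 CPM in CCI, with CCI 2 and sham 2 the highest of their groups. Every kinesin call was the same without those 2 libraries. That fit did not even out muscle content. CCI 1, 3 and 4 stood at 13.3, 566 and 338 CPM, and sham 1, 3 and 4 at 18.1, 25.8 and 17.3 CPM.

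All 10 mitotic kinesins were higher after injury, by a median log2 fold change of 4.08 (16.9-fold) and a range of 2.44 to 5.22, against the background of 36.2% of genes called higher. Transport kinesins moved the other way: 8 of 9 were lower, against a background of 32.2%, and Kif3b was not called. Their median was -1.44 (2.71-fold lower). Over the list, mitotic kinesins summed to 17.3 to 20.5 CPM in sham and 214 to 249 CPM in CCI, and transport kinesins to 2419.8 to 2739 CPM in sham and 826 to 956 CPM in CCI. A nerve sample is bulk tissue, so fewer cells of a type and less RNA per cell cannot be told apart.

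**Figure D1:**
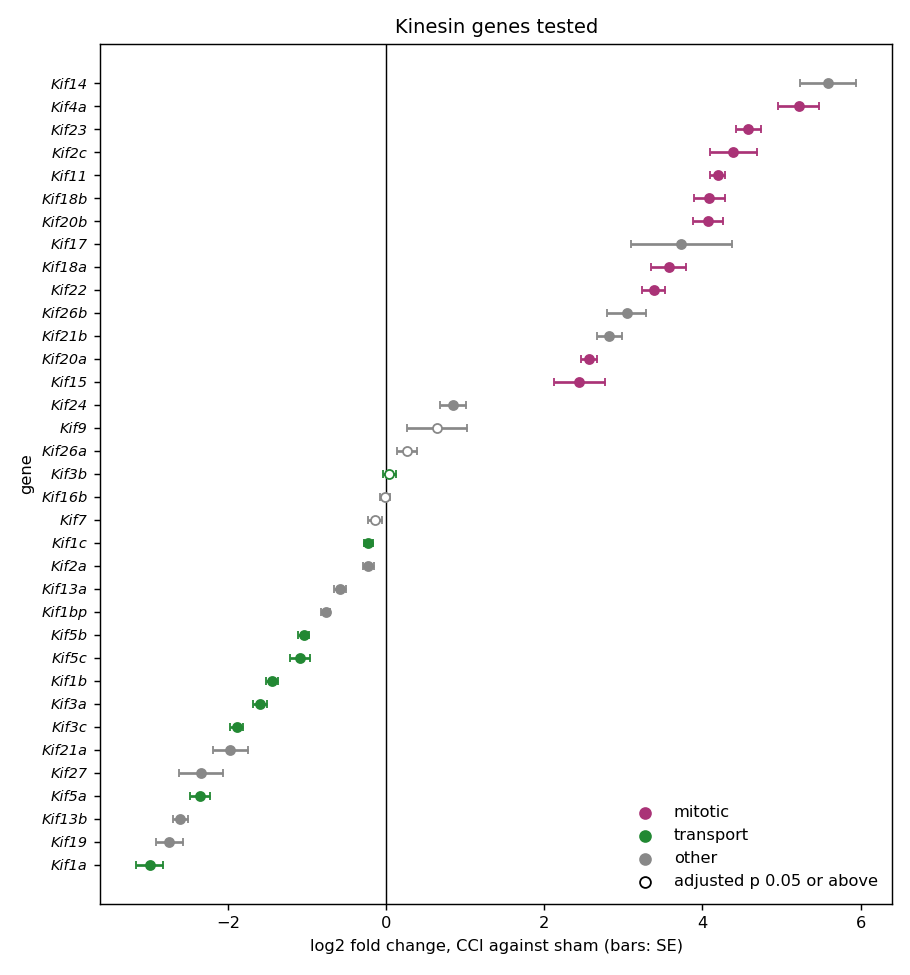
Log2 fold change of each tested kinesin gene, CCI against sham, with its SE as error bar and colour showing the list. The 10 mitotic kinesins lie between 2.44 and 5.22, and the transport kinesins between -2.98 (Kif1a) and 0.04 (Kif3b).

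Promoters of 31 of the 40 genes were in RefSeq's sequence table (assembly GRCr8, 250 bases before to 50 after the start of transcription), and 4 are shown because many cell-cycle genes are known to share promoter elements. Not matched were Kif2b, Kif4b, Kif5a, Kif7, Kif13b, Kif14, Kif19, Kif21b and Kif26a. The CCAAT box binds NF-Y, and the CHR element TTTGAA (or TTCGAA) is the element through which many late cell-cycle genes are held silent in resting cells. Below are 3 mitotic promoters that hold both, on their own strand 5′ to 3′, and that of Kif1a, the transport kinesin that was lowest relative to sham, with matches of either strand in capitals.
Kif4a, chrX:69761633-69761932, plus strand: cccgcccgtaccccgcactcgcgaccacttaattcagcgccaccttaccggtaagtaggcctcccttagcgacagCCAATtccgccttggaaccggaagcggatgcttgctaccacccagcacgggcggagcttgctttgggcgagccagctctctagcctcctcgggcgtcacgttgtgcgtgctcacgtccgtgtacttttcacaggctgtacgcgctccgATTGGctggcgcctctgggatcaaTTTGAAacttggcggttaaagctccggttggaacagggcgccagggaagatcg
Kif22, chr1:191080829-191081128, minus strand: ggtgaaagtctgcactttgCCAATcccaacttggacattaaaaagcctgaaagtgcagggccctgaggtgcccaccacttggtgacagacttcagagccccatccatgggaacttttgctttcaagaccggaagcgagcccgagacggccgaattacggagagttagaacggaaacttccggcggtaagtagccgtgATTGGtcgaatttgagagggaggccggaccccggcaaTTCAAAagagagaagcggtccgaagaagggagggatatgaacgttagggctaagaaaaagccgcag
Kif23, chr8:71320535-71320834, minus strand: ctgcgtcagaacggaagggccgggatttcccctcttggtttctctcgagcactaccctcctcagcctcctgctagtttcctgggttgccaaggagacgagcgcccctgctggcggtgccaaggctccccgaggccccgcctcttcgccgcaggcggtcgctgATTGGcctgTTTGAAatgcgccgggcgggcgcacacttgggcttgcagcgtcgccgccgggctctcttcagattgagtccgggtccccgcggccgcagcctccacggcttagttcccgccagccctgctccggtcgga
Kif1a, chr9:101094728-101095027, minus strand: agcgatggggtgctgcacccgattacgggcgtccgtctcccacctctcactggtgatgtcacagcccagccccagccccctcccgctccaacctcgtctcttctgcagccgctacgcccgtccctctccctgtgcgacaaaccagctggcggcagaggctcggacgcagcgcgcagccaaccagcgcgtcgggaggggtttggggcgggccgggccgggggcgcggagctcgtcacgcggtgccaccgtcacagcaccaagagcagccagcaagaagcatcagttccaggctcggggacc
Counted from its most upstream base, in Kif4a the CCAAT matches begin 175 and 27 bases upstream of the start and the TTTGAA match begins 3 bases upstream. In Kif22 CCAAT lies 231 and 53 bases upstream and TTTGAA 16 bases upstream, and in Kif23 they lie 88 and 79 bases upstream. The Kif1a window holds none of the motifs searched, and neither do the windows of the mitotic genes Kif2c and Kif18b. Those of the transport genes Kif1b, Kif3b and Kif5b hold CCAAT without TTTGAA or TTCGAA.

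Searched on both strands, CCAAT occurred in 6 of the 11 promoters of the 10 mitotic genes (Kif2c has 2) and in 3 of 8 transport promoters, against 37.5% of all 33469 RefSeq promoters of this length. TTTGAA occurred in 5 of 11 mitotic and 0 of 8 transport promoters, against 18.3% of all promoters. CCAAT together with TTTGAA or TTCGAA was found in 4 mitotic promoters (Kif4a, Kif20b, Kif22 and Kif23) and in no transport promoter, against 7.95% of all. TTCGAA (1.69% of all promoters) and the E2F-type motif TTTCCCGC (0.974%) were in none of the mitotic or transport windows, and TTTGGCGC (0.493%) was in that of Kif18a. These matches describe letters in the windows, and binding was not measured. TTCGAA reads the same on both strands, and no match in the promoters printed overlapped another.

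Kif11 is the tetrameric motor that pushes spindle poles apart by sliding antiparallel microtubules. Its level was 2.34, 2.21, 2.51 and 1.98 CPM in sham 1 to 4 and 44.2, 40.8, 41.4 and 39.2 CPM in CCI 1 to 4. The groups were far apart, and within each group the libraries differed little. Kif11 was 18.3-fold higher after injury, a log2 fold change of 4.19 (SE 0.10, adjusted p = 2.07e-09). Kif15, a motor that can stand in for Kif11 in keeping the spindle bipolar, measured 2.16, 3.86, 4.79 and 1.48 CPM in sham 1 to 4 and 17.02, 16.8, 15.4 and 17.6 CPM in CCI 1 to 4. Every CCI library was above every sham library, but sham 2 and sham 3 were higher than sham 1 and sham 4. Its rise was 5.44-fold, the smallest of the list, with a log2 fold change of 2.44 (SE 0.32, adjusted p = 0.000108).

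The chromosome-arm motors followed. Kif4a, a chromokinesin that also limits the length of the central spindle, was at 0.694, 0.235, 0.674 and 0.684 CPM in sham 1 to 4 and 23.05, 19.7, 22.1 and 20.7 CPM in CCI 1 to 4, with sham 2 well under the other sham libraries. It had the largest fold of the mitotic list, 37.3-fold, with a log2 fold change of 5.22 (SE 0.26, adjusted p = 5.55e-08). Kif22, the chromokinesin that pushes chromosome arms towards the spindle equator, was at 3.21, 2.57, 2.11 and 3.29 CPM in sham 1 to 4 and 32.7, 28.4, 29.2 and 26.5 CPM in CCI 1 to 4. No library of one group reached the other, and the gene rose 10.4-fold, with a log2 fold change of 3.38 (SE 0.15, adjusted p = 1.91e-08).

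Kif2c (MCAK) takes microtubule ends apart at centromeres and so helps to correct faulty attachments. It measured 0.771, 0.424, 0.697 and 1.41 CPM in sham 1 to 4 and 18.7, 16.6, 18.2 and 16.2 CPM in CCI 1 to 4. Sham 4 was the highest sham library, still far under every CCI library, and the rise was 20.96-fold, log2 fold change 4.39 (SE 0.30, adjusted p = 6.01e-07). Kif18a, which damps the oscillation of chromosomes at the spindle equator, was at 1.00, 0.518, 0.767 and 0.948 CPM in sham 1 to 4 and 11.2, 8.35, 9.09 and 9.90 CPM in CCI 1 to 4. Its groups were separate, and it rose 11.9-fold, log2 fold change 3.57 (SE 0.22, adjusted p = 1.66e-07). Kif18b, which controls astral microtubules together with Kif2c, was at 1.03, 0.706, 1.12 and 1.32 CPM in sham 1 to 4 and 18.5, 18.7, 19.4 and 14.6 CPM in CCI 1 to 4. CCI 4 was the lowest CCI library, and the groups did not overlap, with a log2 fold change of 4.09 (SE 0.19, adjusted p = 2.82e-08).

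Motors of the central spindle and of cytokinesis were higher as well. Kif23 joins Racgap1 in the centralspindlin complex that sets the division plane, and measured 1.21, 0.848, 1.49 and 1.12 CPM in sham 1 to 4 and 30.9, 27.97, 26.5 and 26.3 CPM in CCI 1 to 4. The groups were again separate, with a 23.9-fold rise and a log2 fold change of 4.58 (SE 0.16, adjusted p = 6.04e-09). Kif20a, which carries the chromosomal passenger complex to the midzone, was at 4.80, 5.30, 5.34 and 5.62 CPM in sham 1 to 4 and 35.3, 28.2, 30.9 and 30.5 CPM in CCI 1 to 4. Its groups were apart too, with a rise of 5.92-fold and a log2 fold change of 2.57 (SE 0.10, adjusted p = 8.18e-09). Kif20b, a motor needed for the last steps of cell separation, was at 1.03, 0.659, 1.02 and 0.750 CPM in sham 1 to 4 and 17.1, 14.3, 14.7 and 12.1 CPM in CCI 1 to 4. All CCI libraries lay above all sham libraries, and the gene rose 16.8-fold, log2 fold change 4.07 (SE 0.19, adjusted p = 2.65e-08).

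Per length, as the deposited FPKM, the order of the mitotic list after injury ran from Kif22 at 15.2 and Kif20a at 11.5, through Kif11 at 9.46 and Kif23 at 8.79, down to Kif18a at 2.93 and Kif20b at 2.66. In sham the same genes stood at 1.25, 1.67, 0.442, 0.314, 0.210 and 0.135 FPKM. Kif20a exceeded Kif22 in sham and the reverse held after injury.

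**Figure D2:**
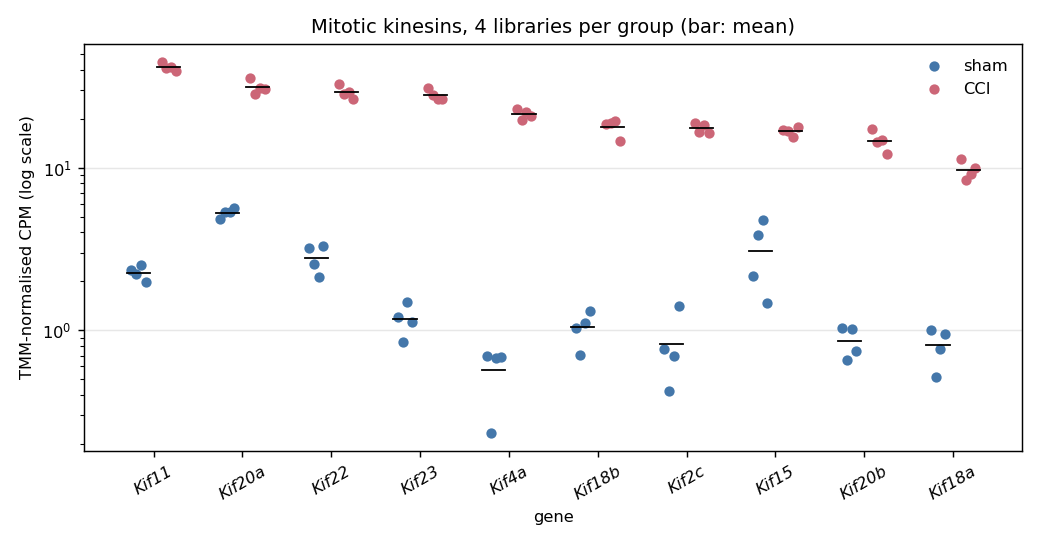
TMM-normalised CPM of the 10 mitotic kinesins in each library, on a log axis, with sham and CCI libraries as separate points. Every CCI library lies above every sham library for each gene, and the sham libraries of Kif15 run from 1.48 to 4.79 CPM.

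Partners of these motors in the spindle and in cytokinesis rose in the same samples. Of 18 such genes 16 were higher (background 36.2%), Numa1 was lower and Ckap5 was not called, with a median log2 fold change of 3.69. Anln, an actin-binding organiser of the contractile ring, went from 7.62 ± 0.866 to 71.2 ± 5.08 CPM (mean ± SD, n = 4), with a log2 fold change of 3.22 (SE 0.10, adjusted p = 3.68e-09). Cdca8, the borealin subunit of the chromosomal passenger complex, went from 1.28 ± 0.195 to 13.9 ± 0.697 CPM, a log2 change of 3.45 (SE 0.14, adjusted p = 1.45e-08). Racgap1, the partner of Kif23, rose by 3.79, and 2 kinesins with other names, Cenpe and Kifc1, by 3.80 and 3.59 on the log2 scale. These 3 and the exceptions in the list were chosen for mention after their values were seen.

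All 10 proliferation markers were higher, against the same background of 36.2%, with a median of 4.00, and they summed to 27.7 to 41.6 CPM in sham and 517 to 600.4 CPM in CCI. Bub1, a checkpoint kinase, had the smallest p and went from 5.64 ± 0.504 to 40.6 ± 3.62 CPM. CCI 1 was the highest CCI library for 8 of the 10 mitotic kinesins and for 8 of the 10 proliferation markers. Sham 2 was the lowest sham library for 6 of the mitotic kinesins and 7 of the markers. At the other extremes, CCI 4 was the lowest CCI library for 6 mitotic kinesins and, like CCI 3, for 4 markers. Sham 4 was the highest sham library for 4 mitotic kinesins, and sham 3 for 5 markers. Such shares over all tested genes are not given here. Markers of macrophages moved in the same direction: 11 of 12 were higher, Cd163 was not called, the median was 2.76, and the list summed to 1005 to 1565 CPM in sham and 5321 to 6182 CPM in CCI, led by Clec7a at 4.10 ± 0.780 and 88.1 ± 6.59 CPM. Lymphocyte markers were higher for 6 of 9 tested with none lower, led by Cd4, with a median of 2.12 and a sum of 65.3 to 99.1 CPM in sham and 251 to 343 CPM in CCI. The part of any cell type in the rise of the mitotic kinesins was not tested.

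Kif1a had the largest fall among the transport kinesins. Kif1a, the motor of synaptic vesicle precursors and dense-core vesicles, measured 1210.0, 962, 997 and 1077 CPM in sham 1 to 4 and 125, 116, 185 and 111 CPM in CCI 1 to 4. CCI 3 stood above the other CCI libraries but far under every sham library, and Kif1a fell 7.91-fold, log2 fold change -2.98 (SE 0.17, adjusted p = 2.00e-07). Kif1b, which carries synaptic vesicle precursors and mitochondria and in zebrafish is needed to move Mbp mRNA into myelinating processes, was at 472, 480.0, 482 and 446 CPM in sham 1 to 4 and 157, 179, 193 and 164 CPM in CCI 1 to 4. Its groups were separate, with a 2.71-fold fall and a log2 fold change of -1.44 (SE 0.08, adjusted p = 6.73e-08). Kif1c, a broadly expressed motor of integrin-bearing vesicles, was at 255, 253, 232 and 243 CPM in sham 1 to 4 and 205, 211, 213 and 210.4 CPM in CCI 1 to 4. The CCI libraries lay just below the sham libraries, with a log2 fold change of -0.23 (SE 0.06, adjusted p = 0.00440). Scaled by library totals only, which moved the median of all tested genes from 0.05 to 0.27, Kif1c stood at -0.00 (adjusted p = 0.991), so its call depends on the scaling.

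In the heterotrimeric kinesin-2 group, Kif3a and Kif3b are the usual pair of motor subunits, and they drive outward transport in cilia. Kif3a was at 75.1, 72.2, 74.3 and 64.6 CPM in sham 1 to 4 and 20.7, 22.7, 26.1 and 25.2 CPM in CCI 1 to 4. The groups did not overlap, and Kif3a fell 3.02-fold, log2 fold change -1.60 (SE 0.09, adjusted p = 8.18e-08). Kif3c, an alternative partner of Kif3a found mainly in neurons, was at 148, 119, 128 and 122 CPM in sham 1 to 4 and 33.98, 34.7, 38.6 and 32.9 CPM in CCI 1 to 4. It fell 3.69-fold with no overlap, log2 fold change -1.89 (SE 0.08, adjusted p = 2.06e-08). Kif3b was at 47.6, 38.4, 40.2 and 47.2 CPM in sham 1 to 4 and 44.5, 41.1, 45.7 and 47.3 CPM in CCI 1 to 4. Its groups overlapped, with a log2 fold change of 0.04 (SE 0.09, adjusted p = 0.676), and with library totals it was called higher at 0.27 (adjusted p = 0.0183). The non-motor subunit Kifap3 was lower by 0.34 on the log2 scale.

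Conventional kinesin-1 heavy chains carry organelles and, in axons, neurofilament proteins. Kif5a, the neuron-enriched form, was at 17.8, 19.9, 22.1 and 16.1 CPM in sham 1 to 4 and 3.50, 3.45, 3.80 and 4.17 CPM in CCI 1 to 4. It fell 5.09-fold with no overlap, log2 fold change -2.35 (SE 0.13, adjusted p = 6.73e-08). Kif5b, the form found in nearly all cells, was at 489, 452, 507 and 439 CPM in sham 1 to 4 and 228, 227, 239.6 and 222 CPM in CCI 1 to 4. It fell 2.06-fold, log2 fold change -1.04 (SE 0.07, adjusted p = 2.55e-07), with narrow ranges in each group. Kif5c, also mainly neuronal, was at 24.2, 23.5, 25.6 and 22.8 CPM in sham 1 to 4 and 14.5, 10.2, 10.8 and 9.65 CPM in CCI 1 to 4. CCI 1 was the highest CCI library, the groups did not overlap, and the gene fell 2.13-fold, log2 fold change -1.09 (SE 0.13, adjusted p = 1.93e-05).

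**Figure D3:**
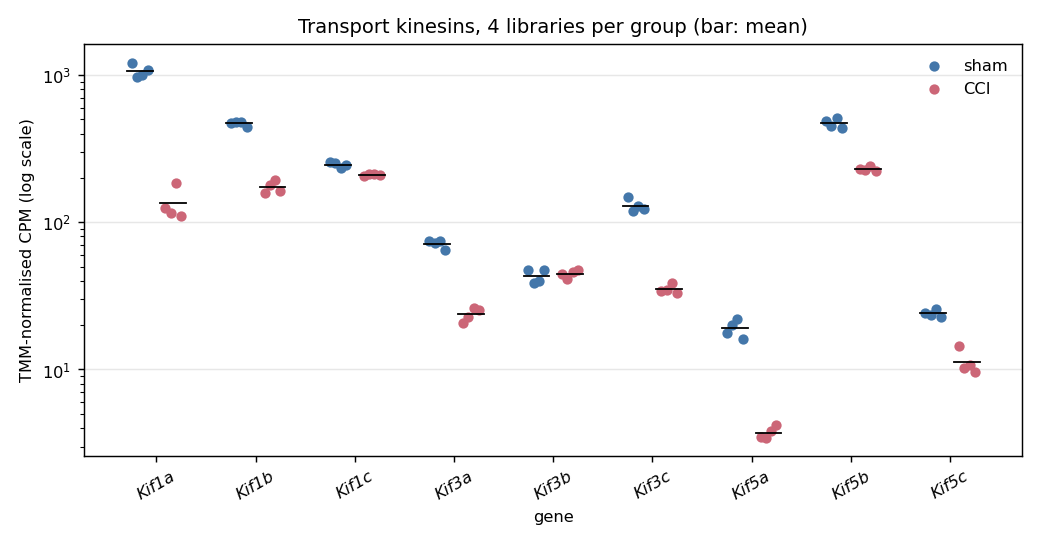
TMM-normalised CPM of the 9 transport kinesins in each library, on a log axis. The sham libraries lie above the CCI libraries for every gene but Kif3b, whose sham libraries run from 38.4 to 47.6 CPM and whose CCI libraries lie within that range.

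The falls were uneven within each group of paralogues. Per length (FPKM carries no TMM scaling, but shares do not depend on it), Kif1a provided 62.3% ± 2.49 (SD, n = 4) of the summed Kif1 FPKM in sham and 27.2% ± 4.14 after injury, while Kif1c went from 14.3% ± 0.83 to 42.9% ± 3.47 and Kif1b from 23.4% ± 1.85 to 29.9% ± 1.33. Kif1a led in sham, and Kif1c, at a nearly level FPKM of 39.6 and 39.5, led after injury in each library. In the Kif3 group Kif3b went from 11.7% ± 1.15 to 32.3% ± 1.74, Kif3a from 23.5% ± 1.62 to 20.7% ± 1.33, and Kif3c from 64.8% ± 1.21 to 47.0% ± 2.06. Kif5b made up 89.9% ± 0.605 of the Kif5 group in sham and 93.5% ± 0.640 after injury, Kif5a 6.17% ± 0.596 and 2.60% ± 0.271, and Kif5c 3.92% ± 0.0843 and 3.93% ± 0.732.

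The 9 pairs of paralogues within these groups were compared by their log2 count ratio in each library, which no scaling of libraries changes, with an exact two-sided permutation test over the 8 libraries (smallest possible p = 0.0286), a test chosen after seeing the data. Kif1a relative to Kif1c fell by 2.78, a 6.89-fold shift, Kif1a relative to Kif1b fell by 1.57, and Kif1b relative to Kif1c fell by 1.22. Kif3a and Kif3c both dropped relative to Kif3b, with a change of -1.65 in the Kif3a to Kif3b ratio and of 1.93 in the Kif3b to Kif3c ratio, while the Kif3a to Kif3c ratio shifted by 0.28. The Kif5a to Kif5b ratio changed by -1.30 and the Kif5a to Kif5c ratio by -1.23. Each of these 8 reached the smallest p, 0.0321 after adjustment over the 9 pairs. The Kif5b to Kif5c ratio differed by 0.07 between groups (exact permutation p = 0.657), with means of 4.29 ± 0.0341 in sham and 4.36 ± 0.258 in CCI (SD, n = 4).

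**Figure D4:**
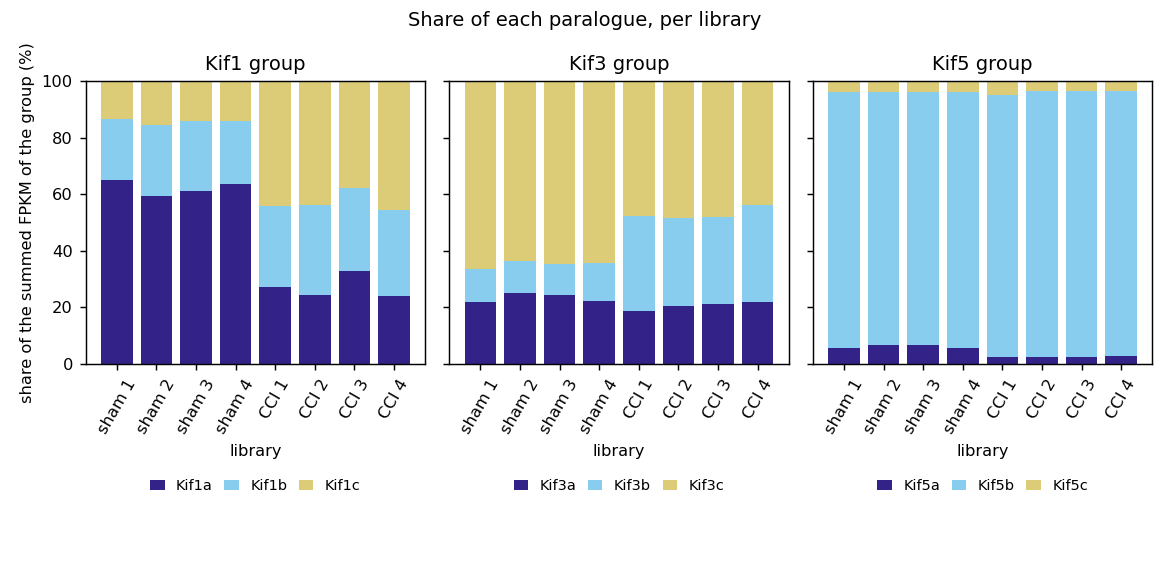
Share of each paralogue in the summed FPKM of its group (Kif1, Kif3, Kif5), in percent, for each library. Kif1c and Kif3b hold larger shares after injury, 42.9% and 32.3% on average, and Kif5b holds most of its group in every library.

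Summed over 39 kinesins (without Kif1bp), FPKM, which carries no TMM scaling, went from 609 ± 31.3 in sham to 319 ± 19.1 after injury. In TMM-scaled CPM, all 40 kinesin genes summed to 4004 to 4504 in sham and 1619 to 1804 in CCI. The mitotic list provided 0.873% ± 0.0661 of the FPKM sum in sham and 22.3% ± 1.65 in CCI, and the transport list 67.7% ± 0.472 and 50.4% ± 1.32 (SD, n = 4). Kif1a, at 172 FPKM, was the highest transport kinesin in sham, followed by Kif5b at 73.7 and Kif1b at 64.4. After injury Kif5b led at 41.9 FPKM, and the ranges of Kif5b (40.8 to 44.6) and of Kif1c, the next (37.9 to 40.9), touched.

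A list of kinesin adaptors, light chains and other cargo partners was mostly lower. It held 21 genes, among them Kifc2 and Kifc3, which are themselves kinesin motors. Of these 17 fell (background 32.2%), Kifc2 among them, Madd rose, and Klc4, Kifc3 and Plekhm2 were not called. The median was -0.63, or -0.40 with library totals. Fez1, an adaptor of Kif5 motors, went from 100.3 ± 6.97 to 11.7 ± 0.676 CPM, a log2 change of -3.10 (SE 0.08, adjusted p = 2.07e-09). Mapk8ip1 (JIP1), a scaffold that links kinesin light chains to cargo, went from 895 ± 101 to 106 ± 7.58 CPM, a log2 change of -3.08 (SE 0.10, adjusted p = 4.52e-09). The light chain Klc1, named after its values were seen, was lower by 0.61 on the log2 scale. Of the genes of dynein and dynactin, which carry cargo the other way, 9 of 27 were higher, 12 lower and 6 not called, shares of 33.3% and 44.4% beside the background of 36.2% and 32.2%. Their median was -0.12, and 0.11 with library totals, so its sign depends on the scaling. The smallest p there belonged to Bicd1, an adaptor that went from 99.3 ± 10.1 to 20.8 ± 2.41 CPM, and Dynll2, a light chain that went from 108 ± 2.10 to 61.6 ± 1.86 CPM. Intraflagellar transport genes, whose trains the Kif3 motor pulls, were lower for 11 of 18 (background 32.2%), higher for Ift27 and not called for 6, with a median of -0.34, or -0.12 with library totals. Wdr19, a train subunit, went from 39.9 ± 2.51 to 19.3 ± 1.16 CPM, and Ift46 from 44.9 ± 2.64 to 26.3 ± 2.31 CPM.

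**Figure D5:**
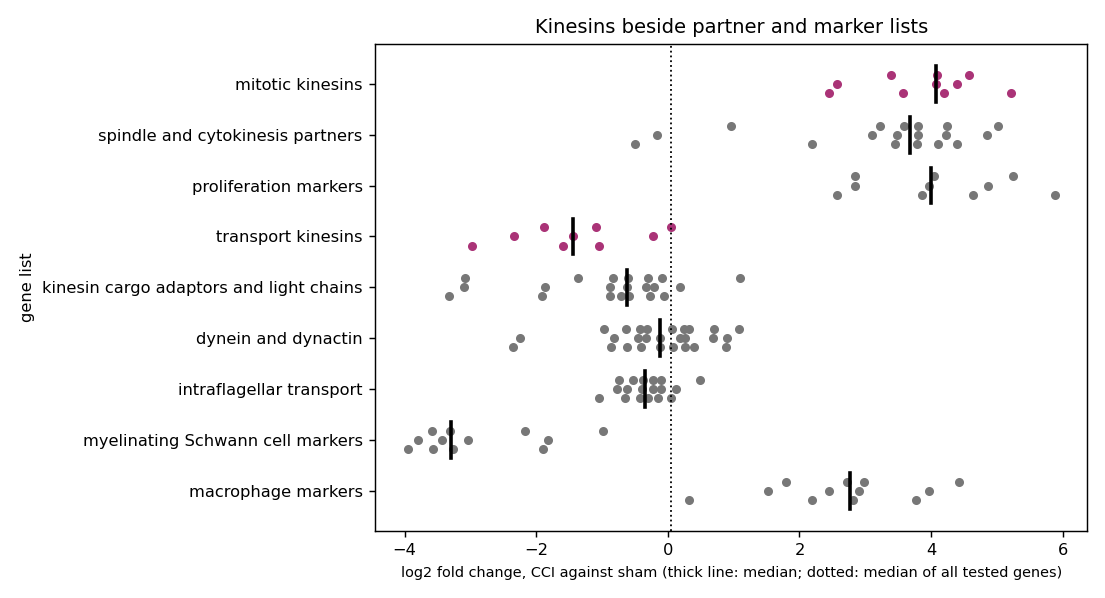
Log2 fold change of every tested gene in the mitotic and transport lists, their partner lists and the marker lists of proliferation, myelinating Schwann cells and macrophages. Each gene is 1 point, with the median as a line. Mitotic kinesins and proliferation markers have medians of 4.08 and 4.00, transport kinesins -1.44 and myelinating Schwann cell markers -3.29.

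Marker lists are each led here by the member with the smallest p, and their counts stand beside a background of 36.2% of tested genes higher and 32.2% lower. All 12 markers of myelinating Schwann cells were lower, with a median of -3.29, and they summed to 94426 to 111114 CPM in sham and 7353 to 11184 CPM in CCI, the same direction as the transport kinesins, led by Fa2h at 732 ± 54.98 and 47.1 ± 6.88 CPM. CCI 3 was the highest CCI library for 12 of the 12 markers and for 6 of the 8 lower transport kinesins. It was also highest for 11 of the 15 lower kinesin genes, which include those 8. CCI 4 was the lowest CCI library for 9 of the markers and 4 of the 8 transport kinesins. Sham 1 was the highest sham library for 9 and 4 of them, and sham 4 the lowest for 6 and 5. Such shares over all tested genes are not given here. Of 11 neuron and axon markers tested 4 were higher (Nefl, Nefm, Gap43 and Tubb3), 6 were lower and 1 was not called, with a median of -0.94 and sums of 97.3 to 113 CPM in sham and 102 to 138 CPM in CCI. Uchl1 had the smallest p among them, at 61.3 ± 1.63 and 30.2 ± 1.82 CPM, and Rbfox3 and Elavl4, which mark neuronal cell bodies, were too low to be tested. Repair Schwann cell markers were higher for 7 of 12, led by Tnfrsf12a, and lower for 2, with a median of 0.87. The 2 lower were Olig1 (-2.19) and L1cam (-1.09), and Shh, Artn and Ncam1 were not called. The other lists were endothelial (7 of 8 higher, median 0.66, led by Tie1), pericyte and smooth muscle (5 of 8 higher and 3 lower, median 0.37, led by Notch3), fibroblast (4 of 8 higher and 1, Dcn, lower, median 0.41) and adipocyte (2 of 7 higher and 1 lower, median -0.16, or 0.06 with library totals, led by Lep). Lep, at only 0.166 CPM in sham, changed by 3.40 (edgeR adjusted p = 0.000433). Pnpla2 went the other way by -2.52 with nearly the same adjusted p, 0.000438. Adipoq, Plin1, Cidec and Retn were not called. The 9 skeletal muscle markers tested had a median of 2.30 and a smallest adjusted p of 0.0849 for Myh1. The part of cell type makeup in the fall of the transport kinesins was not tested.

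Of the 21 remaining genes, 16 were tested, with 5 higher, 7 lower and 4 not called. These are shares of 31.3% higher and 43.8% lower, beside 36.2% and 32.2% of all tested genes. The 5 higher include Kif14 and Kif17, with 3 and 0 sham libraries past the filter, which asks for 4. Both were tested only through their CCI libraries, so the share of 31.3% is partly set by the filter. Kif14, which works with citron kinase in cytokinesis, measured 0.283, 0.0471, 0.325 and 0.309 CPM in sham 1 to 4 and 12.7, 11.99, 10.03 and 12.2 CPM in CCI 1 to 4. Its log2 fold change was 5.59 (SE 0.36, adjusted p = 3.20e-07), or 3.85 by limma on log2(FPKM + 0.1), and its sham level rested on 41 counts in all. Kif26b, an atypical kinesin tied to Wnt5a-Ror signalling, was at 7.58, 5.46, 5.02 and 7.92 CPM in sham 1 to 4 and 53.98, 69.8, 33.8 and 56.3 CPM in CCI 1 to 4. The groups did not overlap although the CCI libraries ranged widely, log2 fold change 3.04 (SE 0.25, adjusted p = 5.20e-06). Kif21b, a regulator of microtubule growth in neurons and T cells, was at 4.70, 6.57, 6.69 and 8.67 CPM in sham 1 to 4 and 50.6, 49.9, 44.7 and 43.8 CPM in CCI 1 to 4. It rose 7.09-fold with no overlap, log2 fold change 2.82 (SE 0.16, adjusted p = 1.51e-07). Kif17, a homodimeric kinesin-2 of dendrites and cilia, had 11 counts over all sham libraries and 177 over all CCI libraries, log2 fold change 3.73 (SE 0.64, adjusted p = 0.000365), and had to be higher in CCI to pass the filter. Kif24, a depolymerase at centrioles, was called higher at 0.85.

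Kif13b, which carries the scaffold protein Dlg1, measured 1054, 954, 910.2 and 836 CPM in sham 1 to 4 and 149, 142, 176 and 151 CPM in CCI 1 to 4. It fell 6.07-fold with no overlap, log2 fold change -2.60 (SE 0.10, adjusted p = 8.18e-09). Kif19, a motor that trims ciliary microtubules, was at 185, 131, 137 and 186 CPM in sham 1 to 4 and 25.9, 20.1, 29.4 and 20.4 CPM in CCI 1 to 4. It fell 6.68-fold, log2 fold change -2.74 (SE 0.17, adjusted p = 7.10e-07). Kif21a, a regulator of microtubule growth and the paralogue of Kif21b, was at 145, 132, 149 and 145 CPM in sham 1 to 4 and 23.8, 31.4, 53.7 and 36.96 CPM in CCI 1 to 4, with CCI 3 the highest CCI library. Where Kif21b was higher, Kif21a was 3.92-fold lower, log2 fold change -1.97 (SE 0.22, adjusted p = 5.92e-05). Kif27, a relative of Kif7 linked to motile cilia in mouse, was at 16.8, 11.4, 12.1 and 13.7 CPM in sham 1 to 4 and 2.24, 1.88, 4.44 and 2.12 CPM in CCI 1 to 4, again with CCI 3 apart, log2 fold change -2.34 (SE 0.27, adjusted p = 3.19e-05).

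Smaller falls were called for Kif1bp (-0.76), Kif13a (-0.58) and Kif2a (-0.23, adjusted p = 0.0134), the last of which stood at -0.00 with library totals. Kif7, a regulator of hedgehog signalling at the ciliary tip, Kif9, Kif16b and Kif26a were not called by edgeR with TMM scaling, at -0.14, 0.64, -0.01 and 0.27. Kif2b, Kif4b, Kif6, Kif12 and Kif28p had too few counts to be tested, between 1 count (Kif12) and 50 counts (Kif6) over all 8 libraries, and RefSeq lists rat Kif4b as a pseudogene.

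How far reads could be shared with neighbours or copies bears on a few of these values. In RefSeq, 12 of the 40 genes overlap another protein-coding gene, 11 of them a gene listed under that name in the count table and Kif27 the gene Kif27l1, which was not matched there. The strand setting of the counting is not given in the sources used here. The neighbours of the mitotic genes were Ide (Kif11), Cdc23 (Kif20a), Mettl15 (Kif18a), Pdzd11 (Kif4a) and RGD1311745 (Kif15), with log2 fold changes of 0.58, 0.15, 0.11, 0.11 and -0.03. Kif7 overlaps Ticrr, which rose by 3.39. Kif1c, Kif11, Kif13a and Kif18b have pseudogene copies in RefSeq that could take or give reads.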

How the data were processed

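PolyA RNA of sciatic nerve was sequenced from 4 CCI and 4 sham libraries, prepared with a SMARTER kit, per the labels' protocols. The authors deposited raw counts per gene and FPKM values (counts divided by gene length and library total, as checked on the files). The submitters' processing notes name the build Rnor_6.0 and, without saying what each did, DESeq2, HTSeq, HISAT2, fastp and R 3.2.0. Annotation, strand setting and filters: not given in the sources used here. Promoters come from RefSeq assembly GRCr8.

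The test was edgeR 4.0.16 (R 4.3.3) on the deposited counts of all genes: filterByExpr (at least 10 counts at the median depth in 4 libraries), TMM scaling, glmQLFit (robust), CCI against sham without covariates, Benjamini-Hochberg over 15763 genes. Standard errors are approximate (the coefficient over the square root of F). Depth sets precision: 3 counts, the limit that a count of 0 allows, equal 0.0518 to 0.0771 CPM, for counting error only. Within groups the libraries differed beyond sampling noise (27.5 to 74.5 chi-square units per degree of freedom over pairs). The script was tested on simulated data in which few genes changed. That test does not cover scaling where most genes differ, as here.

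Pair ratios used counts plus 0.5. Alternatives were other scalings, DESeq2 1.42.0, limma 3.58.1 on log2(FPKM + 1) and log2(FPKM + 0.1), other filters, a replicate block and leaving out libraries. All mitotic and transport genes are named, the other kinesins when called at an absolute log2 fold change of at least 1, and from each partner or marker list the 2 or 1 with the smallest p. Members and lists were chosen with earlier results of these data known. No list was tested as a set.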

Additional observations from a re-analysis of the deposited data

Results flagged for a closer look

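In 4 of 70 groups of 4 libraries (35 tested kinesin genes, sham and CCI), a single library lay far from the other 3 relative to the range of its group. Chance flags about 1 in 20 such groups. Kif4a in sham 2 was at 0.235 CPM, where the other sham libraries were at 0.674 to 0.694 CPM. Kif14 in sham 2 was at 0.0471 CPM, where the others were at 0.283 to 0.325 CPM. In sham 1 to 4 these are 11, 2, 14 and 14 counts for Kif14 and 27, 10, 29 and 31 counts for Kif4a. Counting error is wide at such counts. Kif7 in sham 3 was at 16.2 CPM, where the others were at 20.3 to 20.6 CPM. Kif27 in CCI 3 was at 4.44 CPM, where the others were at 1.88 to 2.24 CPM.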

How the results depend on the processing

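DESeq2, DESeq2's size factors, upper-quartile scaling, no filter, and leaving out CCI 2 with sham 2 changed no kinesin call. Scaled by library totals only, the medians were 4.31 for mitotic and -1.21 for transport kinesins, 1 transport kinesin (Kif3b) was higher, Kif7 was at 0.086, Kif16b was called higher at 0.21 and Kif26a at 0.49, Kif1c and Kif2a were not called, so that 18 kinesins were higher and 13 lower, and the share of all calls that were higher went from 52.9% to 66.9%. Limma on log2(FPKM + 0.1) gave medians of 3.73 and -1.21 and 1 transport kinesin higher, with Kif7 at 0.089, Kif16b at 0.21 and Kif2a at 0.0021. Both limma fits called 19 kinesins higher and 13 lower: Kif3b, Kif16b, Kif26a and Kif9 (0.58, adjusted p = 0.0401 here, and 0.15, adjusted p = 0.0428 with 1 added) were gained, and Kif1c and Kif2a were lost. Limma on log2(FPKM + 1), which compresses low genes, gave medians of 2.39 and -1.19 and 1 higher, with Kif7 at 0.072, Kif16b at 0.17 and Kif2a at 0.0018. Kif3b was at -0.010 with the 5 CPM filter, which kept 33 of the 35 genes. Leaving out each library in turn gave 15 kinesins higher throughout and 15 to 16 lower, 10 mitotic higher, 8 transport lower and 0 higher, with medians of 3.95 to 4.14 and -1.53 to -1.43. Without sham 3 Kif7 was called lower at -0.22 (adjusted p = 0.0303) and Kif16b, whose values ran from -0.053 to 0.015 over these fits, was highest, and Kif3b was at -0.0058 without CCI 4 and -0.012 without sham 2. With a replicate block 16 kinesins were higher, Kif26a being added at 0.26 (adjusted p = 0.0233), and 15 lower, with medians of 4.09 and -1.44. Same-numbered libraries shared only a number: their deviations correlated at 0.114, 0.267, -0.0181 and 0.0193, and only pair 2 correlated best with its own number. With 4 against 3 libraries the exact test of the paralogue ratios cannot go below p = 0.0571. The cause of these differences was not tested. Depth limited Kif2b, Kif4b, Kif6, Kif12 and Kif28p, and Kif17 in sham.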
